A study of Mus musculus with 10 samples.

Results

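The loci of Mef2c, Mef2d and Mef2a were described in chromatin immunoprecipitation maps of the myogenic factors MyoD and Myf5 and of acetylated histone H4 (H4Ac), a mark of active chromatin. The members are the rows of 7 peak lists that overlap a window of the mouse build mm9 around each gene: chr13:83480000-83830000 for Mef2c, chr3:87925000-87995000 for Mef2d and chr7:74350000-74550000 for Mef2a. They number 95 of 241128 rows: 15 MyoD peaks, 29 Myf5 peaks, and 20, 15 and 16 H4Ac peaks in cells with MyoD, Myf5 and GFP, with no peak of either mock list. All cells were mouse embryonic fibroblasts (MEFs) of the genotype MyoD-/-; Myf5-/-, named M&M MEFs in the labels, so the controls lack both genes too. They received MyoD, Myf5 or GFP from a lentivirus, went into differentiation medium 24 h after infection and were harvested 20 h later. The groups were MyoD precipitated from cells with MyoD, Myf5 from cells with Myf5, H4Ac from cells with MyoD, with Myf5 and with GFP, and a mock precipitation from cells with GFP for each factor antibody. The factors were thus measured only as virally delivered proteins in cells without an endogenous copy.

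Each group had 1 list. The titles of the MyoD and Myf5 lists name 2 replicates together, and the other titles name none, so no replicate error could be computed, no difference has a replicate check and no p-value is given. Peak strength is given as maximum coverage in reads, a value of the authors. It is compared within a list, by its rank (rank 1 is the strongest) and by its multiple of the authors' calling cutoff, which differs by list and by GC content. Sequencing depth is unknown from these files. Gene expression is not in these files either, so the fibroblast label was not checked against marker genes, and exon or intron positions are not given because no mm9 annotation was used.

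MEF2 proteins are MADS-box transcription factors that bind an A/T-rich element and act together with basic helix-loop-helix proteins such as MyoD and Myf5, which bind E-boxes (CANNTG), to switch on muscle genes. Mef2c is the member most closely tied to the start of skeletal and cardiac muscle differentiation, and Mef2a and Mef2d are expressed in many tissues. Myogenic factors and MEF2 proteins are known to raise each other's expression during muscle differentiation. The windows ask whether the virally delivered factors bound at the Mef2 genes and whether H4Ac was called there with and without them.

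The letters at the gene starts are shown because the E-box is the sequence that MyoD and Myf5 recognise. The windows come from RefSeq (GRCm38.p6), are 300 bases long, lie mostly before an annotated start and include it, and matched all 3 genes, with 3 starts for Mef2c and 1 each for Mef2d and Mef2a. Their coordinates are of another build than the peaks, so whether a peak covers any of them was not determined. Capitals mark an E-box (CANNTG) or a simple pattern for the MEF2 element (CTA, any 4 bases, TAG). A match to either pattern on a strand is also a match on the other strand.
Mef2c, first start, chr13:83503784-83504083, plus strand: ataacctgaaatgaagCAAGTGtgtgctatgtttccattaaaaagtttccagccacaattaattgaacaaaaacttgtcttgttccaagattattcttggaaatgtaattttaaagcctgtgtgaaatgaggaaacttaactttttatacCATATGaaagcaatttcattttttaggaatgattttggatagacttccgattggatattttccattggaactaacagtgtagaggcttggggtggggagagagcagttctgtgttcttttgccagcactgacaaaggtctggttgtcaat
Mef2d, chr3:88142122-88142421, plus strand: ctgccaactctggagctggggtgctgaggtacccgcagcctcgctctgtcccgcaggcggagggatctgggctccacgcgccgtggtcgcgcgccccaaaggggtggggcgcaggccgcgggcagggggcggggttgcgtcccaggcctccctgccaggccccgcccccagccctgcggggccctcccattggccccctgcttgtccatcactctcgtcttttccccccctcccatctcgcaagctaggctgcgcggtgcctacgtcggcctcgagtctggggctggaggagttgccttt
Mef2a, chr7:67372809-67373108, minus strand: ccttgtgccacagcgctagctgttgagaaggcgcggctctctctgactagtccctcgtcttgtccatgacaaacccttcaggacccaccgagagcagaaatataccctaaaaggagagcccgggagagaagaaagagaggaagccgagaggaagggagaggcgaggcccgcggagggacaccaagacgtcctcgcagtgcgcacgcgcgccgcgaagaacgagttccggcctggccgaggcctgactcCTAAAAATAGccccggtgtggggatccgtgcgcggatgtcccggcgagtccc
The Mef2c window shown holds 2 E-boxes, CAAGTG and CATATG, and 35.7% GC. The next Mef2c start has none and the last has 1 (CAGATG). The Mef2d and Mef2a windows, with 72.0% and 62.3% GC, hold no E-box, and Mef2a holds 1 match to the MEF2 pattern, CTAAAAATAG. Of 32851 promoter windows of this length in the table, 72.3% hold CANNTG and 3.69% hold the MEF2 pattern. None of the 5 Mef2 windows holds CAGCTG (16.3% of all windows do) or CAGGTG or its reverse complement CACCTG (20.2% do). These 3 sequences are all forms of CANNTG.

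Both factors had peaks at all 3 loci. Mef2d carried 6 MyoD and 10 Myf5 peaks in 70 kb, Mef2a 6 and 11 in 200 kb, and Mef2c 3 and 8 in 350 kb. Per 100 kb this is 8.57 MyoD peaks at Mef2d, 3.0 at Mef2a and 0.857 at Mef2c, against 1.75 over the 2577 Mb that the lists span. For Myf5 it is 14.3, 5.5 and 2.29, against 3.64. Among genome tiles of the same length as each window, 3.74% held at least as many MyoD peaks as Mef2d, 24.7% as many as Mef2a and 60.5% as many as Mef2c. The tiles were not chosen around genes as the windows were, and 51.6% of those of the Mef2d length held 0 MyoD peaks. The windows differ in how much flank they hold. The RefSeq spans of the genes are 30.2 kb for Mef2d, 145 kb for Mef2a and 163 kb for Mef2c, so a difference in density between loci also holds a difference in window choice. The next protein-coding gene lies 2.69 kb from Mef2a (Lysmd4, on the side of its 3′ end), 20.9 kb from Mef2d (Iqgap3) and 555 kb from Mef2c (Tmem161b) in that annotation. The low-coordinate end of the Mef2a window may therefore hold Lysmd4, and peaks there were not assigned to a gene. Whether the Mef2d window reaches Iqgap3 was not determined.

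**Figure D1:**
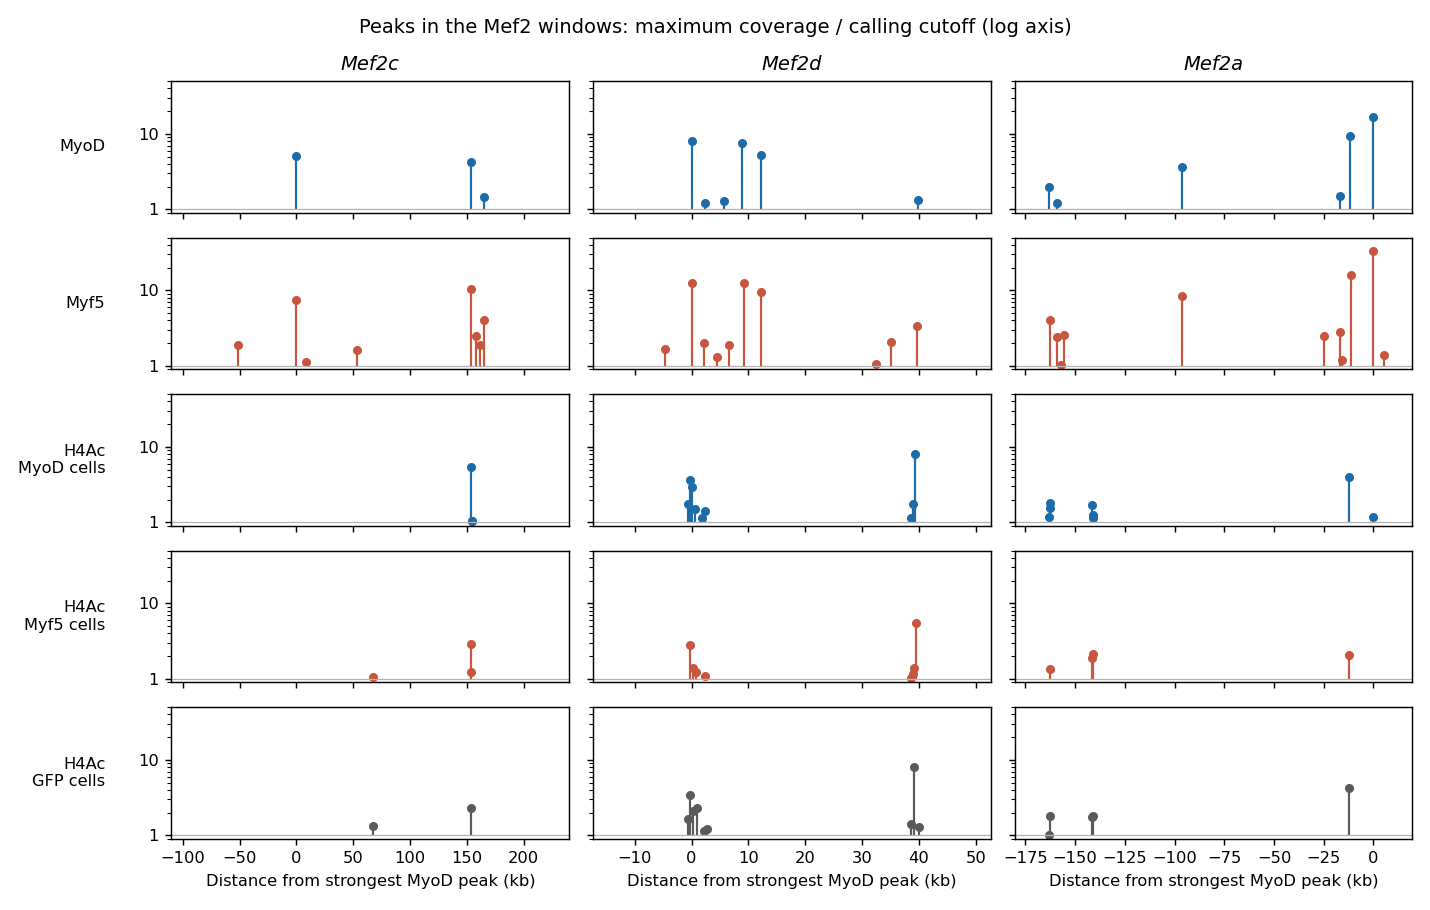
Called peaks in the windows of Mef2c, Mef2d and Mef2a. The horizontal axis is the distance in kb from the centre of the strongest MyoD peak of the locus, and the height is the maximum coverage over the calling cutoff (log axis, grey line at 1). The rows are MyoD, Myf5, and H4Ac in cells with MyoD, Myf5 and GFP. The tallest factor peak is at Mef2a, at 16.6 times the cutoff for MyoD and 33.6 times for Myf5, and the tallest H4Ac peaks are at Mef2d, at 8.0, 5.48 and 8.08 times the cutoff in cells with MyoD, Myf5 and GFP.

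Each of the 15 MyoD peaks shared 1 bp or more with a Myf5 peak (exact 95% interval 78.2% to 100%), and 97.5% of the whole MyoD list did. Of the 29 Myf5 peaks, 15 overlapped a MyoD peak (51.7%, interval 32.5% to 70.6%), against 45.9% of the whole Myf5 list. Both shares are near those of the lists. The peaks joined into 29 sites: 15 shared and 14 with Myf5 alone. The Myf5 list is the longer, and with its strongest 45015 peaks only, 3 Myf5-only peaks were left in the windows (1 at Mef2c, 0 at Mef2d and 2 at Mef2a) beside the 15 shared. Myf5 coverage at the 15 shared sites ran from 60 to 906 with a median of 204, and at the 14 Myf5-only sites from 28 to 70 with a median of 44.5. The groups overlapped over a narrow range, since only 3 shared sites, with 60, 65 and 66, lay below the highest Myf5-only value. Over the whole Myf5 list the medians were 111 with and 39 without a MyoD peak. Myf5 coverage was 1.5 to 2.79 times MyoD coverage at the 15 shared sites (median 1.87), against a median of 2.07 over 42633 shared sites, and the lists name no scaling that would make the coverages comparable.

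At Mef2a the strongest factor site of the 3 loci lay near the high-coordinate end of the window, which is the 5′ side of this minus-strand gene. The site at chr7:74529715-74531116 had a MyoD coverage of 448 (rank 326 of 45015, the top 0.724%) and a Myf5 coverage of 906 (rank 415 of 93787, the top 0.442%). Another, 11.5 kb away at chr7:74517684-74520179, had coverages of 258 (MyoD rank 1432) and 456 (Myf5 rank 2468). Both sites stood within the top 3.18% of both lists. The next in strength, at chr7:74433803-74434627, lay 96.2 kb from the first, with 98 for MyoD and 229 for Myf5. The site at chr7:74366836-74368704, at the end of the window near Lysmd4, had 54 and 108. The remaining shared sites at Mef2a, at chr7:74513137-74513886 and chr7:74370734-74371550, were weak, with MyoD coverages of 41 and 33 and Myf5 coverages of 75 and 66. The 5 Myf5-only sites had coverages of 28 to 70.

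Mef2d, whose protein is a widely expressed family member, carried a group of 3 strong sites within 13.9 kb. These were chr3:87941037-87943717 with coverages of 217 (MyoD rank 2091) and 333 (Myf5 rank 4506), chr3:87950605-87952528 with 213 (rank 2174) and 359 (rank 3944), and chr3:87954136-87954916 with 148 (rank 4455) and 277 (rank 6164). All 3 were within the top 10% of both lists. The other 3 shared sites of the locus were near the MyoD cutoff, with MyoD coverages of 36, 39 and 36 at 1.2, 1.3 and 1.33 times their cutoffs. They lay at chr3:87944096-87945133, chr3:87947532-87950400 and chr3:87981481-87982687, with Myf5 coverages of 65, 60 and 91. The 4 Myf5-only sites at Mef2d had coverages of 31 to 56.

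Mef2c had the fewest shared sites, and the strongest by MyoD coverage lay far from the others, at 154 kb and 166 kb. The strongest by MyoD coverage, chr13:83589117-83590295, had 136 (rank 5164, the top 11.5%) and a Myf5 coverage of 204 (rank 10099). The strongest by Myf5 coverage lay 154 kb away at chr13:83743163-83744241, with 114 for MyoD (rank 6968, the top 15.5%) and 277 for Myf5 (rank 6164, the top 6.57%). The order of the 2 sites was thus opposite in the MyoD and Myf5 lists. The last, chr13:83754947-83755599, had 39 and 109, at 1.44 and 4.04 times its cutoffs. Between and beyond them lay 5 Myf5-only sites with coverages of 30 to 67, of which the strongest, chr13:83747383-83747928, was 2.48 times its cutoff. The next, chr13:83538341-83538816 and chr13:83751463-83752102, tied at 51. No Mef2c site reached the strength of the leading Mef2a or Mef2d site in either list.

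**Figure D2:**
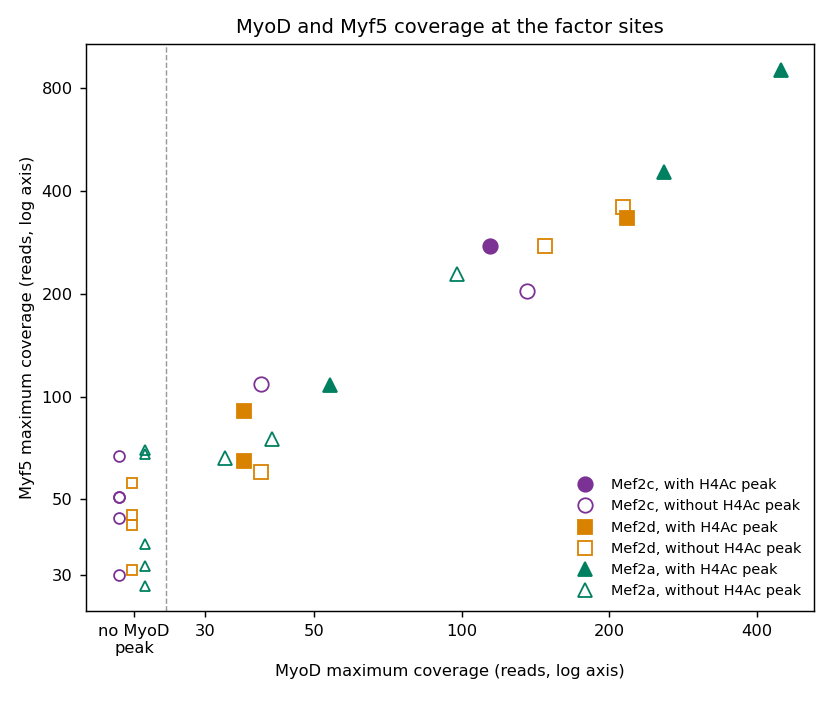
Myf5 maximum coverage against MyoD maximum coverage (reads, log axes) at the 29 factor sites, by locus. Filled symbols overlap an H4Ac peak in at least 1 of the 3 populations, open symbols overlap none, and symbols left of the dashed line had a Myf5 peak only. The 14 Myf5-only sites had Myf5 coverages of 28 to 70 and no H4Ac peak, and the strongest site, with 448 and 906, is at Mef2a.

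The mock lists gave no peak in any window, like 95.1% to 98.9% of genome tiles of these lengths. The nearest of the 942 peaks of the MyoD mock lay 2524 kb outside the Mef2a window, and the nearest of the 1359 peaks of the Myf5 mock lay 2828 kb outside the Mef2c window. Control coverage listed beside the factor peaks was 1 to 5 at the 15 MyoD peaks (list median 5) and 5 to 16 at the 29 Myf5 peaks (list median 11). Throughout the genome, 0 of 45015 MyoD and 0 of 93787 Myf5 peaks overlapped a peak of the matching mock. The lack of such overlap at the members is thus shared with every listed peak and does not set them apart.

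The peaks of Mef2c and Mef2d differed in GC content. All 3 MyoD and all 8 Myf5 peaks of Mef2c fell in the bins of at most 45% GC, against 0 of 6 and 0 of 10 at Mef2d, and 2 of 6 and 7 of 11 at Mef2a. Of the whole lists, 50.3% of MyoD and 50.6% of Myf5 peaks were in those bins. The calling cutoff was 27 reads for both factors at every Mef2c peak and reached 30 for MyoD and 32 for Myf5 at Mef2d. The part of GC content in the differences between loci was not tested.

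H4Ac was called at all 3 loci in every population, cells with GFP included. Mef2d carried 9, 8 and 9 H4Ac peaks in cells with MyoD, Myf5 and GFP, Mef2a 8, 4 and 5, and Mef2c 3, 3 and 2. Such counts depend on how H4Ac was split into peaks. At Mef2a, chr7:74367502-74368013 and chr7:74389023-74389580 each held 2 peaks with MyoD and 1 with Myf5. The regions chr7:74367003-74367299 and chr7:74530278-74530409 had a peak with MyoD and none with Myf5. With peaks within 500 bp joined, Mef2d had 2 regions, Mef2a 4 and Mef2c 2. Of genome tiles of the window's length, 1.36%, 1.24% and 0.85% held at least as many as Mef2d, 12.3%, 26.3% and 20.1% as many as Mef2a, and 50.3%, 48.8% and 54.5% as many as Mef2c. Such tiles were not chosen around genes, and 66.9%, 67.5% and 68.9% of those of the Mef2d length held 0 H4Ac peaks. Windows around other genes were not compared. The median coverage over cutoff of all H4Ac peaks was 1.52, 1.37 and 1.78 over the 3 windows, against 1.37, 1.38 and 1.42 in the whole lists. Joined across populations, the peaks made 18 regions: 8 at Mef2d, 6 at Mef2a and 4 at Mef2c. Of these, 11 were called in all 3 populations (40.8% of 45627 regions genome-wide were), 2 in cells with MyoD only (14%), 1 with both factors and not GFP (8.3%), 2 with MyoD and GFP (7.89%), 1 with Myf5 and GFP (4.79%) and 1 with GFP only (10.5%). None was called with Myf5 only (13.7%). The 7 regions that were not called everywhere had their highest coverage at 1.05 to 1.73 times the cutoff.

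**Figure D3:**
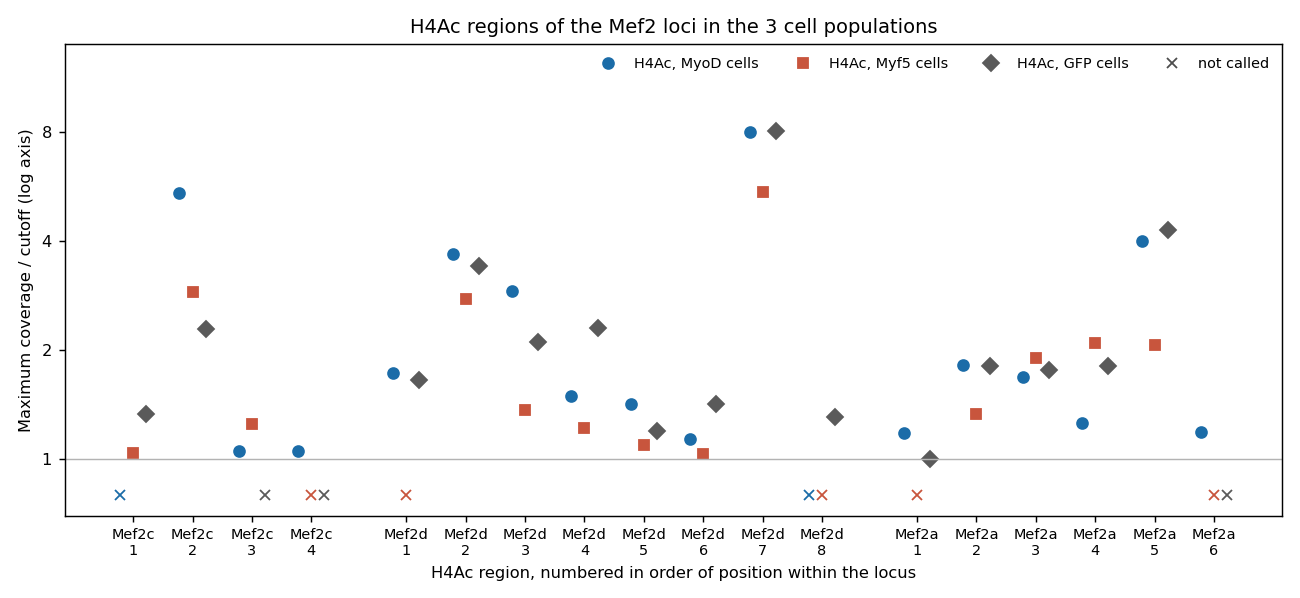
Maximum coverage over cutoff (log axis, grey line at 1) of the 18 H4Ac regions, numbered by position within each locus, in cells with MyoD, Myf5 and GFP from left to right. A cross marks a population in which the region was not called. Mef2c region 2 stands at 5.42 in cells with MyoD, 2.9 with Myf5 and 2.29 with GFP, while Mef2d region 7 and Mef2a region 5 are lowest with Myf5.

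The main Mef2c region was the one that differed most between cells with MyoD and cells with GFP. At chr13:83743226-83743553, inside the second shared factor site of the locus, H4Ac coverage was 103 in cells with MyoD, 58 in cells with Myf5 and 48 in cells with GFP. In its own list the peak ranked 1139 of 36864 with MyoD (the top 3.09%), 5450 of 32041 with Myf5 (the top 17.0%) and 8487 of 31120 with GFP (the top 27.3%). Relative to each cutoff (19, 20 and 21 reads) it stood at 5.42, 2.9 and 2.29. The MyoD value was 2.37 times the GFP value and 1.87 times the Myf5 value, and the Myf5 value was 1.27 times the GFP value. Over all regions called in both members of a pair the medians of these ratios were 1.01, 1.03 and 1.01. A MyoD to GFP ratio of at least 2.37 was found at 80 of 22210 regions (0.36%) and a ratio of at least 1.5 at 7.54%. This region was singled out after its values were seen, and each value is from 1 list. Weak H4Ac peaks stood beside it within the same factor site or next to it. At chr13:83743926-83744121 the coverage was 20 with MyoD and 25 with Myf5, with no GFP peak. At chr13:83744254-83744349 it was 20 with MyoD, with no Myf5 or GFP peak, and this region began just beyond the factor site. All these flanking peaks were within 1.25 times the cutoff.

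The remaining Mef2c region, chr13:83657119-83657458, lay at no factor peak. It was called with Myf5 (25, at 1.04 times the cutoff) and with GFP (32, at 1.33 times) and not with MyoD. The 2 other shared Mef2c sites, the stronger MyoD site at chr13:83589117-83590295 included, had no H4Ac peak in any population.

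At Mef2d the H4Ac regions fell into 2 groups, with 35.5 kb free of H4Ac peaks between them. The first group, chr3:87941439-87945236, covered the strongest MyoD site of the locus and the weak site beside it. Its leading region, chr3:87941873-87942304, had coverages of 81, 75 and 89 in cells with MyoD, Myf5 and GFP, or 3.68, 2.78 and 3.42 times the cutoff. The adjoining region chr3:87942381-87942627 had 64, 37 and 55, and chr3:87942703-87943718 had 33, 33 and 60. The first of these adjoining regions was highest with MyoD and the other with GFP, so the populations did not keep one order along the group. The region chr3:87941439-87941836 was called with MyoD (38) and GFP (43) only, and chr3:87943982-87945236 had 37, 34 and 36.

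The second Mef2d group held the strongest H4Ac peak of the 3 loci. At chr3:87981145-87981993 coverage was 176 with MyoD, 148 with Myf5 and 210 with GFP, which ranked 266, 402 and 231 in the lists, in the top 0.722%, 1.25% and 0.742%. It overlapped a factor site that was weak for MyoD (36) and stronger for Myf5 (91). Relative to the cutoff the MyoD value was 0.99 times the GFP value and the Myf5 value was 0.679 times the GFP value. Beside it, chr3:87980734-87981141 had 25, 28 and 37 and no factor peak, and chr3:87982186-87982506 was called with GFP only (34). The strong factor sites at chr3:87950605-87952528 and chr3:87954136-87954916, which lay between the groups, had no H4Ac peak in any population.

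**Figure D4:**
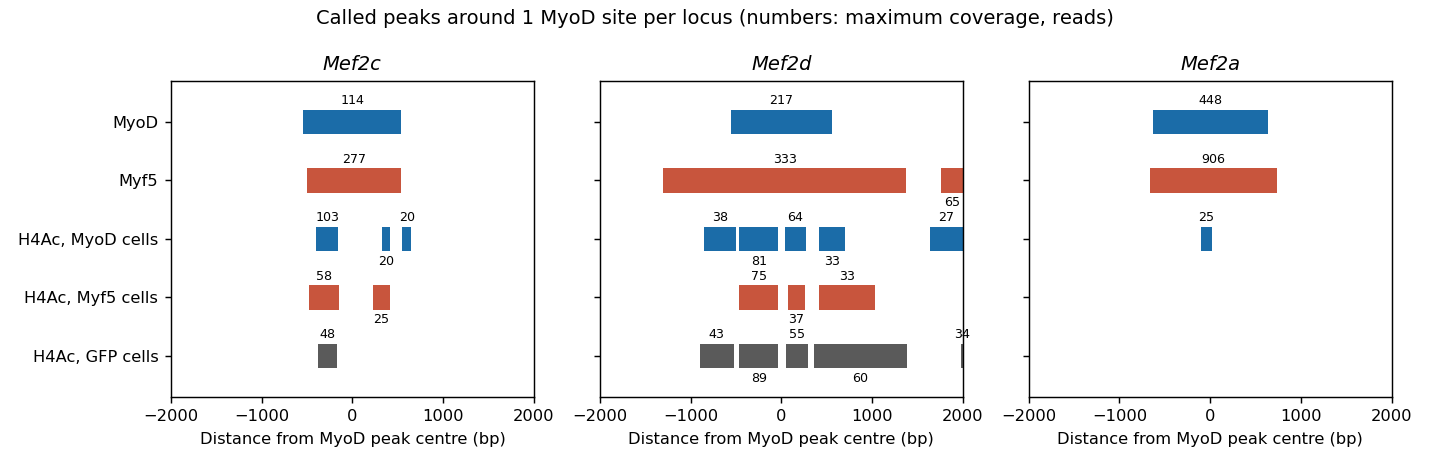
Called peaks within 2000 bp of the centre of the strongest MyoD site with H4Ac in cells with MyoD, for each locus. Bars are peak intervals in MyoD, Myf5, and H4Ac in cells with MyoD, Myf5 and GFP from top to bottom, and numbers are maximum coverage in reads. The Mef2c site shows 103, 58 and 48 for its main H4Ac peak, the Mef2d site has H4Ac in all populations, and the Mef2a site has a weak H4Ac peak of 25 in cells with MyoD.

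At Mef2a, the strongest factor site carried only a weak H4Ac peak. That peak, chr7:74530278-74530409, was called in cells with MyoD only, with a coverage of 25 at 1.19 times the cutoff (rank 24861 of 36864). Of the 15 MyoD peaks, only the 1 at this site overlapped H4Ac called with MyoD and not with GFP, and 5.99% of the whole MyoD list did, so the share is near the background. The neighbouring site 11.5 kb away had H4Ac in every population at chr7:74517815-74518534, with coverages of 96, 60 and 120 in cells with MyoD, Myf5 and GFP, or 4.0, 2.07 and 4.29 times the cutoff. The Myf5 value was 0.483 times and the MyoD value 0.933 times the GFP value. At the Lysmd4 end of the window, chr7:74367502-74368013 had 40, 36 and 47, and chr7:74367003-74367299 had 26 with MyoD and 26 with GFP. A pair of regions at no factor peak, chr7:74388468-74388961 and chr7:74389023-74389580, was called in all 3 populations, with 32, 38 and 37 and with 24, 42 and 38.

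The ratio of coverage over cutoff to that in cells with GFP had a pooled median near 1 for MyoD and below 1 for Myf5. Over the 13 regions called with MyoD and GFP its median was 1.01, against 1.01 for all regions, with 1 region at 1.5 or above (Mef2c, background 7.54%) and 1 at 1/1.5 or below (Mef2d, background 5.02%). Over the 12 regions called with Myf5 and GFP the median was 0.759, against 1.01 for all regions, with 0 regions at 1.5 or above (9.15%) and 3 at 1/1.5 or below (12.2%). The Myf5 value was below the GFP value in all 6 such regions of Mef2d (median ratio 0.704), in 2 of 4 at Mef2a and in 1 of 2 at Mef2c. The 3 regions with Myf5 above GFP were all in the lowest GC bin, and the 9 below GFP were all in higher bins. Side thus went with GC bin, also within Mef2a and Mef2c. The lowest bin held 19.2% of the H4Ac list with Myf5, against 13.1% with MyoD and 13.3% with GFP. The part of GC content in the side was not tested. Over the 12 regions called with MyoD and Myf5 the median was 1.31, against 1.03, with 3 regions at 1.5 or above (10.8%) and 1 at 1/1.5 or below (5.14%). In 6 of the 11 regions called in all populations the MyoD and Myf5 values lay on opposite sides of the GFP value, against 30.1% of such regions genome-wide. Some of the 6 lay close to GFP. The MyoD value was 1.01 times the GFP value at chr7:74367502-74368013 and 0.956 times at chr7:74388468-74388961. The count depends on the scaling by cutoff. At these regions the coverages with MyoD, Myf5 and GFP were 40, 36 and 47, and 32, 38 and 37. The list medians were 30, 35 and 35. Divided by them, MyoD and Myf5 fall on the same side of GFP at both regions, so fewer regions would count. The genome-wide share was not recomputed with list medians. The first 2 ratios share the GFP list, neighbouring regions are not independent, and none of these differences was tested.

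Counted from the factor sites, 7 of 15 MyoD peaks overlapped an H4Ac peak in at least 1 population (46.7%), against 21.6% of the whole MyoD list. By population the numbers were 7 of 15 with MyoD, 6 with Myf5 and 6 with GFP, with exact intervals of 21.3% to 73.4%, 16.3% to 67.7% and 16.3% to 67.7%. The whole list had 18.6%, 15.1% and 14.4%. Among the 29 Myf5 peaks the numbers were 7, 6 and 6 (24.1%, 20.7% and 20.7%), against 13.6%, 11.9% and 11.6% of the whole Myf5 list. All 7 sites with H4Ac were shared sites. Of the 14 Myf5-only sites 0 had an H4Ac peak, and 10.9% of the 50737 Myf5 peaks without a MyoD peak in the whole list had one. The 0 allows a share of up to about 21.4%, taken as 3 of 14, a rough limit and not an exact interval. In the other direction, 13 of the 18 H4Ac regions overlapped a factor peak, against 46.9% genome-wide. Intervals cover counting error only, and peaks of 1 locus are not independent observations.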

How the data were processed

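Peak lists were read as deposited. Per the file headers, a row holds a position, the maximum coverage (a signal in reads), the coverage cutoff of its GC bin (5 bins per list) and the authors' p-value. Factor and H4Ac rows also hold a control coverage. At the members the authors' p-values were at most 6.55e-06. The submitters' processing notes name CASAVA (version 1.8.2), BWA (version 0.7.5) and the builds mm9 and hg19. Neither a role for each build, nor the peak caller, nor how replicates were joined is given in the sources used here. Per the labels' protocols, formaldehyde fixation (11 min) and sonication preceded factor precipitation, whereas H4Ac used unfixed chromatin and 15 units of MNase (18 min). No header names a scaling to depth. A control value below 0, found in 1 H4Ac row with GFP, was set to missing.

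Membership of a window and overlap of peaks needed at least 1 bp. MyoD and Myf5 peaks were joined into sites, and the peaks of the 3 H4Ac lists into regions, each valued by its strongest peak. Tiles of window length began at position 3000000 of each chromosome and count peak centres. Share intervals are exact (Clopper-Pearson, level 0.95). The 3 input samples are not analysed here. The members, sequences and the limit of 1.5 times were chosen with earlier results of these data known. Named positions were, per locus, the 5 strongest sites of each factor, sites with MyoD only (none), sites at H4Ac and every H4Ac region. A planned list of pathway genes was not counted, since no mm9 annotation was used. Overlap and joining were tested on simulated lists and found every planted overlap. Software was Python 3.11.15 with matplotlib 3.10.9, scipy 1.17.1, pandas 2.3.3 and numpy 2.4.6.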

Additional observations from a re-analysis of the deposited data

Results flagged for a closer look

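In 6 of the 11 H4Ac regions called in all 3 populations, coverage over cutoff lay on opposite sides of the GFP value in cells with MyoD and in cells with Myf5. Of the 18611 regions called in all 3 populations genome-wide, 30.1% did so. Each population has 1 H4Ac list and both comparisons share the GFP list, so the difference was not tested. The count depends on the scaling by cutoff. With list medians, chr7:74367502-74368013 and chr7:74388468-74388961 would no longer be opposite, and the genome-wide share was not recomputed that way. At Mef2d, the value with MyoD was 1.33 times that with Myf5 at chr3:87941873-87942304, 2.12 times at chr3:87942381-87942627 and 1.3 times at chr3:87943982-87945236. At Mef2a it was 1.36 times at chr7:74367502-74368013, where the MyoD value was only 1.01 times the GFP value. The MyoD value was the lower at the pair of Mef2a regions without a factor peak, at 0.886 times the Myf5 value for chr7:74388468-74388961 and 0.602 times for chr7:74389023-74389580. A lower MyoD value did not always go with the lack of a factor peak. The MyoD value was 1.1 times the Myf5 value at chr3:87980734-87981141, which had no factor peak. It was 0.842 times at chr13:83743926-83744121, which overlapped a factor peak.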

How the results depend on the processing

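Of 189 values recomputed for 66 results, 156 stayed within 1.5 times the reported value and 33 moved further. Counts and ranks could not be scored as reversed. Only the 6 ratios scaled by list medians could be, and only where the reported ratio was at least 1.5 times either way. The ratios that met this limit were 2.37 (Mef2c, MyoD over GFP) and 0.483 (Mef2a, Myf5 over GFP). Neither reversed, but both lay so far from 1 that a reversal was hardly possible. The 0 reversed values are thus no measure of robustness. Counts that stayed within 1.5 times the reported value also changed, for example to 4 shared peaks at Mef2d, against 6, with centres within 100 bp. With only peaks at 1.5 times the cutoff or more, Mef2c kept 1 H4Ac peak each with MyoD, Myf5 and GFP, in 1 region, with 0 regions called with MyoD and not GFP and 0 with Myf5 and not GFP. Mef2d kept 3 MyoD peaks, 3 of them with Myf5 (and 3 Myf5 peaks with MyoD), 1 MyoD peak each at H4Ac with MyoD, Myf5 and GFP, 2 H4Ac peaks with Myf5 and 5 with GFP, and 5 regions, of which 2 in all populations and 0 with GFP only. Mef2a kept 4 H4Ac peaks with MyoD, 1 MyoD and 1 Myf5 peak at H4Ac with Myf5, 2 regions in all populations and 0 with MyoD and not GFP. With the Myf5 list held to the length of the MyoD list, Mef2c had 4 and Mef2d 6 Myf5 peaks, and Myf5-only peaks fell to 3, against 14. With an overlap of 50%, Mef2a had 1 MyoD peak at H4Ac with Myf5. With H4Ac lists of equal length, Mef2c had 1 H4Ac peak with MyoD and 0 regions with MyoD and not GFP. With H4Ac peaks within 500 bp joined, Mef2c had 2 regions, 0 with MyoD and not GFP and 0 with Myf5 and not GFP, and Mef2d had 2 regions, 2 in all populations and 0 with GFP only. The cause of these moves, beyond the smaller lists and wider joins themselves, was not tested. The leading Mef2c region stayed above GFP with MyoD (2.50 times) and Myf5 (1.21 times) when scaled by list medians, an alternative chosen after seeing the data. Depth is unknown, so an uncalled peak is not an absent one. No paired analysis was possible because each group has 1 list.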
